A study of Mus musculus with 8 samples.

Results

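Voltage-gated sodium channels carry the rising phase of the action potential, and each pore-forming alpha subunit works with partner proteins. The 6 genes described here encode such partners: Scn2b, Scn3b and Scn4b are beta subunit genes, and Fgf12, Fgf13 and Fgf14 are fibroblast growth factor homologous factor genes. They were chosen by symbol, all 6 were found among the 43372 gene symbols of the count table, and all 6 passed the filter on low counts that left 11828 genes for testing.

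The RNA came from neurons of the mouse dorsal root ganglion (DRG), the ganglion that holds the cell bodies of sensory neurons. The Sst group came from Sst-IRES-Cre mice (Ssttm2.1(cre)Zjh/J), in which the gene of the peptide somatostatin drives Cre recombinase, and the Trpv1 group from Trpv1-IRES-Cre mice (Trpv1tm1(cre)Bbm/J), in which the gene of the heat- and capsaicin-gated channel Trpv1 does so. Both groups were on a C57Bl/6 background and were injected intraperitoneally at postnatal day 2 with a viral reporter, either AAV9-CAG-FLEX-eGFP-WPRE or its tdTomato form, AAV9-CAG-FLEX-tdTomato-WPRE, so that cells with Cre became fluorescent. From each mouse, aged 3 to 5 weeks, 150 to 250 fluorescent cells were hand-picked, and each library gives the mean of such a pool. There were 4 libraries per genotype, called Sst and Trpv1 pools here, and the labels do not say which reporter each one carried. The animals were of both sexes, but Y-linked transcripts stood in Trpv1 pools only, as given below. The picked cells are those that had made Cre and taken up virus by then, whatever their expression of Sst or Trpv1 on the day of picking.

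Beta subunits are single-pass membrane proteins with an extracellular immunoglobulin-like domain. They alter channel gating and surface density and also act in cell adhesion. The proteins encoded by Scn2b and Scn4b are joined to the alpha subunit by a disulfide bond, whereas that encoded by Scn3b binds without one. The cytoplasmic tail of the Scn4b product is known as an open-channel blocker that allows resurgent sodium current in fast-firing neurons. The fibroblast growth factor homologous factors are not secreted like other fibroblast growth factors. They bind the cytoplasmic end of the alpha subunit and shift or slow its inactivation, and the Fgf13 product also binds microtubules. In sensory neurons Fgf13 is known for its part in heat pain.

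Library totals ran from 9021125 to 12153109 counts in the Sst group and from 7419027 to 9568508 in the Trpv1 group. Trpv1 replicates 1 and 2 held 0 counts of the X-inactivation transcript Xist and 825 and 860 counts of 4 Y-linked genes, while the 6 other libraries held Xist and 0 Y-linked counts. By these transcripts sex was not balanced between the groups, with every Sst library female and Trpv1 pools of both sexes. Transcripts of pituitary hormones summed to 457 CPM (counts scaled by library size) in Sst replicate 2 and to between 1634 and 1750 CPM in Trpv1 replicates 1 to 3, and to at most 3.88 CPM in the other libraries. Sst replicate 4 stood apart within its group. It had the lowest sum of myelinated neuron markers (9117 CPM, against 11040 to 14560 CPM in Sst replicates 1 to 3) and the highest sum of markers of NP3 neurons, the class that holds Nppb and Sst (7431 CPM, against 4493 to 4822 CPM). It also held 433 CPM of fibroblast markers, against 46.6 to 71.3 CPM in those 3 libraries. Pools of cells are bulk samples, in which fewer cells of a type and less RNA per cell cannot be told apart.

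Of the 6 genes, 1 differed between the groups and 5 did not pass the test: Scn4b was higher in Sst pools (edgeR quasi-likelihood test, Benjamini-Hochberg adjusted p under 0.05). Over all genes tested 493 passed, a background of 4.17%, with 246 (2.08%) higher and 247 (2.09%) lower in Sst pools. The median log2 fold change of the 6 genes was −0.22, beside 0.0026 over all genes tested. The list has too few genes for its share to say more than which gene moved.

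Scn2b and Scn4b are neighbours on mouse chromosome 9, and of the pair only Scn4b passed the test between the groups. In the GENCODE M21 annotation of build GRCm38, Scn2b spans 45117782 to 45130070 and Scn4b spans 45138395 to 45154152, both on the plus strand, with a gap of 8.3 kb and 0 annotated genes between them. Scn3b lies on the same chromosome at 40269217 to 40291618, also on the plus strand, with 180 genes between it and Scn2b. The start regions of the neighbours are shown because one gene differed between the groups and the other did not pass. They are the RefSeq windows of build GRCm38.p6, from 250 bases before to 50 bases after the RefSeq start. They lie at chr9:45117626-45117925 for Scn2b and chr9:45138374-45138673 for Scn4b, plus strand, with each CG dinucleotide in capitals. The GENCODE start of each gene differs from the RefSeq start and lies inside the window, near the first base for Scn4b and farther in for Scn2b. By that annotation the windows cover unlike regions.
Scn2b: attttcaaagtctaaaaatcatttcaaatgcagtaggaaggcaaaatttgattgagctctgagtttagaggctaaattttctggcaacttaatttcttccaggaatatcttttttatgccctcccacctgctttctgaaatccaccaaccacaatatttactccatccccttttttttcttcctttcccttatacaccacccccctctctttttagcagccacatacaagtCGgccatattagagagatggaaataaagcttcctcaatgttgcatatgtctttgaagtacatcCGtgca
Scn4b: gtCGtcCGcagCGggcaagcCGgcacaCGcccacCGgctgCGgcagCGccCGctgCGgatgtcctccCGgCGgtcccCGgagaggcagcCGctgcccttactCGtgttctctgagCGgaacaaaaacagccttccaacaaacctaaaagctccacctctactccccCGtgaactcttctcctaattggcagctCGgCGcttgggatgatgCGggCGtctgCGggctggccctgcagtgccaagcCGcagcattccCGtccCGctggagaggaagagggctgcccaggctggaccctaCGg
The Scn2b window was AT-rich, with a GC content of 38.3% and 2 CG dinucleotides, and only 14.1% of the 32851 windows in the RefSeq set held fewer. The Scn4b window had a GC content of 66.3% and 26 CG dinucleotides, more than 83.1% of windows. Neither window held the letters TATAAA, found on either strand in 13.6% of windows, or GGGCGG, found in 35.7%. Windows were found for 5 of the 6 genes, with Scn3b having none in the set, and Fgf12 and Fgf13 each had 4, at different starts. The counts are per gene and do not tell these starts apart.

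Scn4b stood at 169, 157, 171 and 68.9 CPM in Sst replicates 1 to 4, against 12.8, 48.0, 21.1 and 6.16 CPM in Trpv1 replicates 1 to 4. Every Sst library lay above every Trpv1 library, although Sst replicate 4 came close to Trpv1 replicate 2. Across all genes tested, 11.1% had groups without overlap and 5.43% had such groups with the higher values in Sst pools. The means were 142 ± 48.8 CPM in Sst pools and 22.0 ± 18.4 CPM in Trpv1 pools (SD, n = 4 each), a 6.45-fold difference (log2 fold change 2.69, SE 0.50, 95% interval 1.63 to 3.75, edgeR adjusted p = 0.00421). The raw counts behind these values ran from 760 to 1844 in Sst pools and from 58 to 375 in Trpv1 pools, so counting error was small beside the spread between libraries.

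The call of Scn4b held in all 19 alternatives run, with adjusted p from 1.56e-06 to 0.035. The size depended on which libraries were used. Without Trpv1 replicate 2 the log2 fold change was 3.42, and in the 6 libraries with Xist it was 3.40. In the 4 libraries almost free of the pituitary transcripts Gh and Prl (counts of 0 or 1), 3 Sst and 1 Trpv1, it was 4.51. The lone library left there, Trpv1 replicate 4, has the lowest Scn4b value of all 8, so a larger fold followed from which library remained. It is assumed to vary like Sst pools, whereas the coefficient of variation of Scn4b was 34.5% in Sst and 83.4% in Trpv1 pools.

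Scn2b stood at 86.25, 48.3, 85.0 and 98.2 CPM in Sst replicates 1 to 4, against 49.6, 87.7, 80.85 and 138 CPM in Trpv1 replicates 1 to 4. The groups overlapped between 49.6 and 98.2 CPM, with the lowest value in Sst replicate 2 and Trpv1 replicate 4 above every Sst library. The log2 fold change was −0.16 (SE 0.32, 95% interval −0.85 to 0.52, edgeR adjusted p = 0.881), and its sign turned when Sst replicate 2 (0.034) or Trpv1 replicate 4 (0.14) was left out and with limma voom (0.018). The interval is wide, so the missed threshold does not show similar levels.

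Scn3b stood at 129, 148, 142 and 235 CPM in Sst replicates 1 to 4, against 175.5, 177, 279 and 162 CPM in Trpv1 replicates 1 to 4. All Trpv1 libraries lay above Sst replicates 1 to 3, and Sst replicate 4 lay within the Trpv1 range. The log2 fold change was −0.28 (SE 0.25, 95% interval −0.80 to 0.25, edgeR adjusted p = 0.67). Leaving out Sst replicate 4 gave −0.50 with an adjusted p of 0.314, and leaving out Trpv1 replicate 3 gave −0.069. In the 4 libraries almost free of Gh and Prl the sign turned (0.098).

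**Figure D1:**
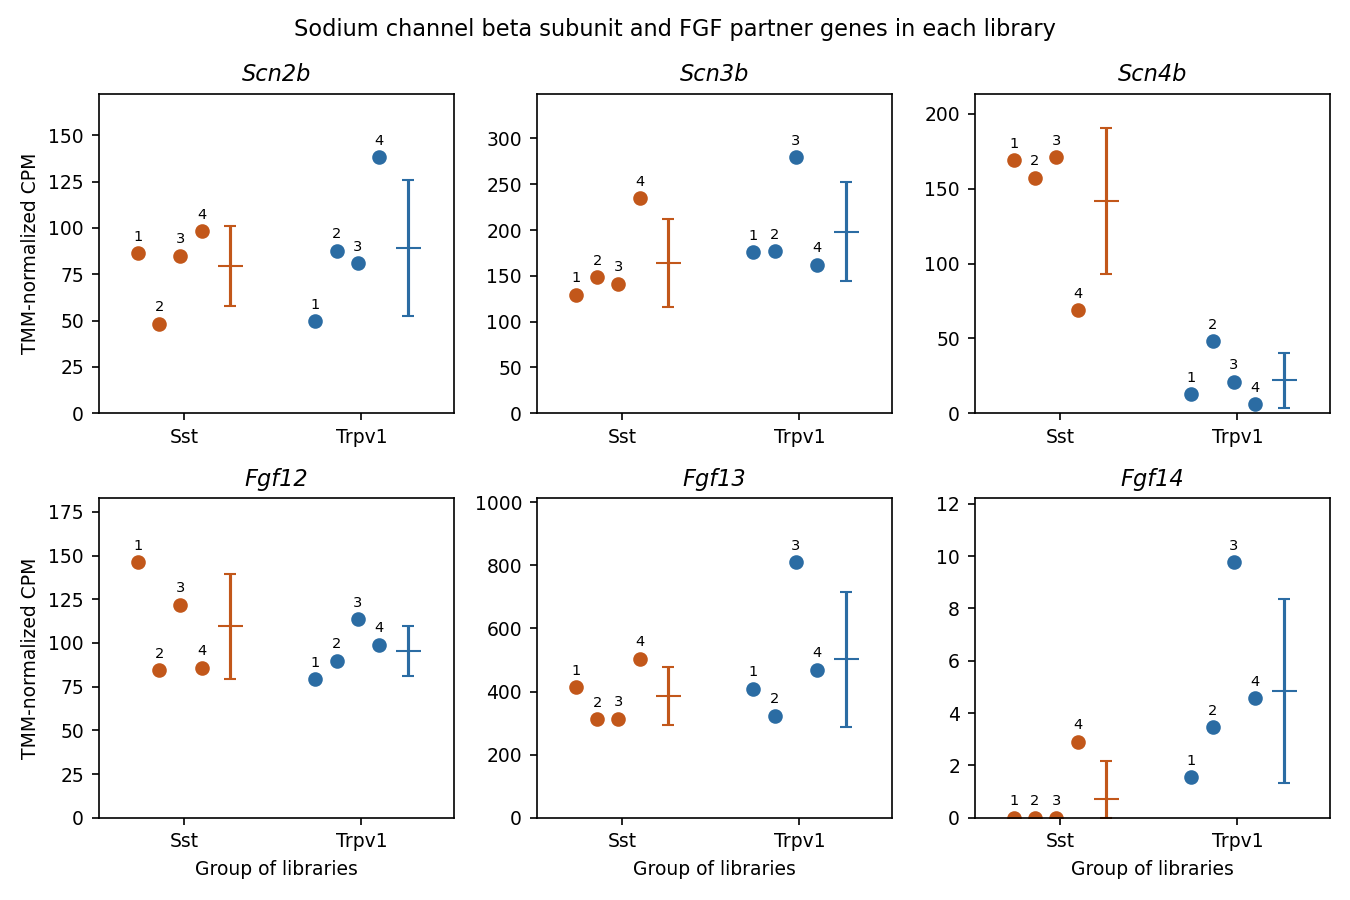
Normalized CPM of the 6 genes in each library, with the Sst group left of the Trpv1 group. Points are libraries numbered by replicate, and bars give the mean and SD of the 4 libraries, cut at 0. Scn4b alone shows groups that do not overlap, and Sst replicate 4 holds the lowest Scn4b value, the highest Scn3b value and the sole Fgf14 counts of the Sst group.

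Fgf13 was the most abundant of the 6 genes per unit of length in every library. It lies on the X chromosome (59062145 to 59568071, minus strand). It stood at 413, 312, 313 and 504 CPM in Sst replicates 1 to 4, against 409, 323, 810.5 and 469 CPM in Trpv1 replicates 1 to 4. Trpv1 replicate 3 was far above the rest, and the 7 other libraries were mixed between groups. The log2 fold change was −0.38 (SE 0.26, 95% interval −0.93 to 0.16, edgeR adjusted p = 0.529), and −0.055 without Trpv1 replicate 3. Since the gene is X-linked and Xist was unevenly spread over the groups, the 6 libraries with Xist were also fitted alone, where the log2 fold change was −0.71 (adjusted p = 0.286).

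Fgf12 (chromosome 16, 28160098 to 28753068, minus strand) varied least of the 6 genes on the log2 scale. It stood at 146, 84.5, 122 and 85.8 CPM in Sst replicates 1 to 4, against 79.3, 89.8, 114 and 98.9 CPM in Trpv1 replicates 1 to 4. Sst replicates 1 and 3 were the highest, and Sst replicates 2 and 4 lay within the Trpv1 range. The log2 fold change was 0.20 (SE 0.26, 95% interval −0.34 to 0.74, edgeR adjusted p = 0.791), and it fell to 0.032 without Sst replicate 1.

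Fgf14 (chromosome 14, 123977907 to 124677127, minus strand) was near the limit of detection and uneven between libraries. It had 0 counts in Sst replicates 1, 2 and 3 and 32 counts in Sst replicate 4, against 15, 27, 77 and 43 counts in Trpv1 replicates 1 to 4. In CPM, Sst replicate 4 held 2.90, inside the Trpv1 range of 1.55 to 9.77. The 4 Trpv1 libraries, the group where the gene is higher, were enough for it to pass the low-count filter. Its direction in the test was thus set in part by that filter. The log2 fold change was −2.70 (SE 1.58, 95% interval −6.04 to 0.63, edgeR adjusted p = 0.448), which does not pass. It passed with limma voom (−5.55, adjusted p = 0.0336), under the same filter, so that call adds no separate support. Without Sst replicate 4 the edgeR fit also passed (adjusted p = 0.028), but that fit removes the sole Sst library with Fgf14 counts, so its call follows from the choice of library and adds no support. Exons of Fgf14 share 220 bases with the antisense gene Gm28932, and the strand setting of the counting is not stated, so those bases cannot be assigned to either gene.

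Per kilobase of annotated exon, which allows levels to be set side by side between genes, the order in Sst pools was Fgf13 at 96.0 ± 22.9, Scn3b at 29.9 ± 8.81, Scn4b at 28.4 ± 9.79, Fgf12 at 17.7 ± 4.83, Scn2b at 17.1 ± 4.64 and Fgf14 at 0.174 ± 0.347 CPM per kilobase (SD, n = 4). Fgf13 lay above and Fgf14 below all others in every Sst library, while the ranges of Scn3b and Scn4b overlapped, as did those of Scn4b, Fgf12 and Scn2b. In Trpv1 pools the order was Fgf13 at 125 ± 53.2, Scn3b at 36.3 ± 9.95, Scn2b at 19.1 ± 7.86, Fgf12 at 15.4 ± 2.35, Scn4b at 4.42 ± 3.68 and Fgf14 at 1.16 ± 0.841 CPM per kilobase. There the ranges of Scn2b and Fgf12 overlapped, as did those of Scn4b and Fgf14, and Scn4b lay below Fgf12 in every library. By its mean, Scn4b thus stood above Fgf12 and Scn2b in Sst pools and below both in Trpv1 pools. Taking the longest transcript as the length exchanged Fgf12 (23.1) and Scn2b (19.1) in the Trpv1 order and left the rank of Scn4b.

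Among the beta subunit genes the makeup of the sum differed more than the sum itself. Scn2b, Scn3b and Scn4b together gave 75.4 ± 4.32 CPM per kilobase in Sst pools and 59.9 ± 11.2 in Trpv1 pools (SD, n = 4 each), with ranges of 69.1 to 78.5 and 45.4 to 72.7 that overlapped. Scn4b took 44.6%, 45.7%, 43.7% and 17.8% of that sum in Sst replicates 1 to 4, against 5.68%, 15.8%, 5.82% and 2.04% in Trpv1 replicates 1 to 4. It was the largest share in Sst replicates 1 to 3. Scn3b took the largest share in Sst replicate 4 (55.2%) and between 49.0% and 70.9% in Trpv1 pools, with Scn2b level with it in Trpv1 replicate 4 (49.0%).

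The ratio of the neighbours, Scn4b over Scn2b per kilobase, was 1.83, 3.04, 1.88 and 0.656 in Sst replicates 1 to 4, against 0.242, 0.511, 0.244 and 0.0417 in Trpv1 replicates 1 to 4. Scn4b was the more abundant of the pair in Sst replicates 1 to 3 and the less abundant in the 5 other libraries. These shares and ratios are a description and were given no test, since the genes were chosen with results known.

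Among the 3 FGF genes Fgf13 took 79.9% to 89.6% of the summed CPM per kilobase in Sst pools and 84.0% to 90.7% in Trpv1 pools. Fgf12 took 9.89% to 20.1% in Sst and 8.24% to 15.1% in Trpv1 pools, and Fgf14 took 0% to 0.496% in Sst and 0.323% to 1.05% in Trpv1 pools. Fgf13 led the FGF sum in every library, whereas the leading beta subunit gene was not the same in all. The summed level was 114 ± 23.1 CPM per kilobase in Sst pools and 142 ± 56.0 in Trpv1 pools, with 222 in Trpv1 replicate 3.

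**Figure D2:**
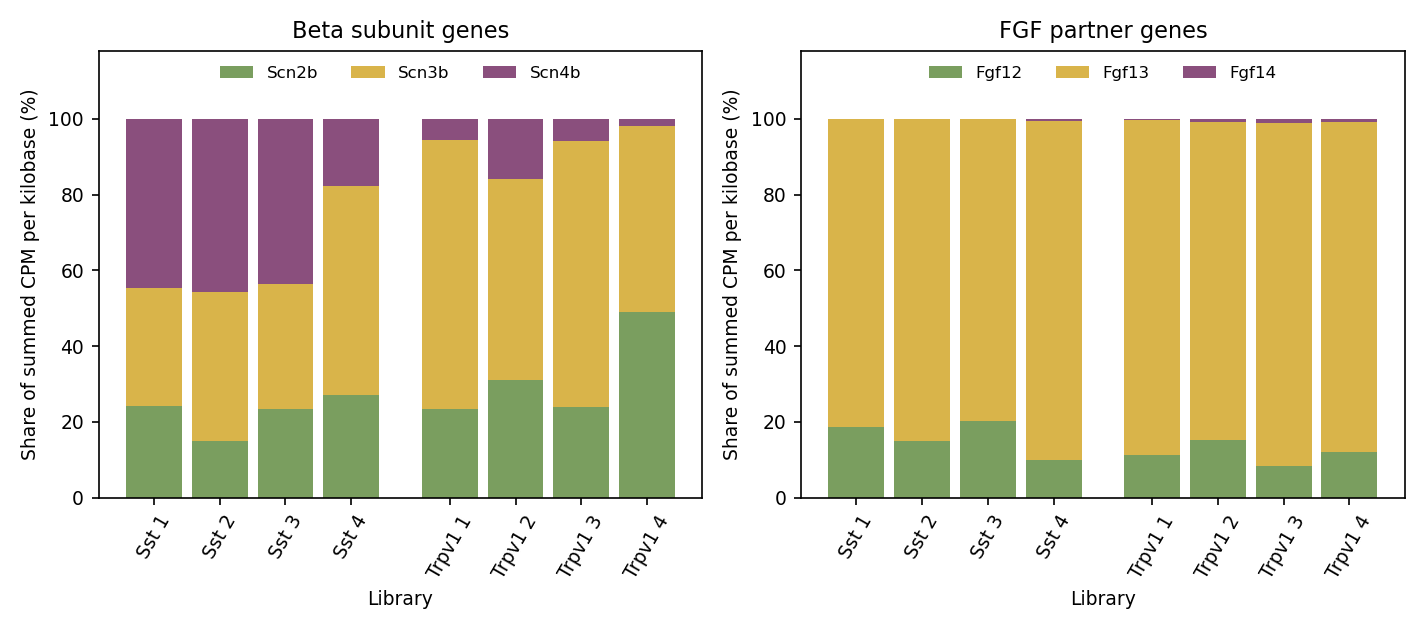
Share of each gene in the summed CPM per kilobase of the 3 beta subunit genes and of the 3 FGF genes, with 1 bar per library. Scn4b takes 43.7% to 45.7% in Sst replicates 1 to 3, 17.8% in Sst replicate 4 and 2.04% to 15.8% in Trpv1 pools, while Fgf13 leads in every bar of the FGF genes.

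Profiles over the 8 libraries were compared by the root mean square distance between log2 CPM values centred on the mean of each gene, among the 6940 genes whose mean log2 CPM reached 3. The genes nearest to Scn4b were Cadps2, which acts in the release of dense-core vesicles (distance 0.402), Ano4, of the anoctamin family (0.463), and Cntn1, an axonal adhesion protein (0.483). Scn4b itself varied by 1.71 on the same scale. Their log2 fold changes were 3.10, 2.40 and 2.64, and Sst replicate 4 was the lowest Sst library in each. These values describe the match and are no separate evidence, since the genes were picked for it over the same libraries. Cadps2 stood at 43.2 CPM in it and at 142 to 183 CPM in Sst replicates 1 to 3. Fgf14, with a mean log2 CPM of 0.40, lay below the level set for the genes searched, so genes as low were left out. Cdhr1 was the nearest to it at 0.948, where Fgf14 itself varied by 2.15.

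The other 4 genes varied far less. The genes nearest to Scn2b were Pmpcb, Nmt1 and Rcn2 (distances 0.148 to 0.222), those nearest to Scn3b were Ankrd12, Fam171b and Ebf1 (0.123 to 0.130), those nearest to Fgf12 were Snupn, Ankib1 and Sv2c (0.144 to 0.187), and those nearest to Fgf13 were Bmpr2, Pank3 and Aff2 (0.138 to 0.155). None of these 12 genes passed between the groups (edgeR adjusted p from 0.28 to 0.954). Among the 6 genes themselves Scn3b and Fgf13 lay closest (0.262) and Scn4b and Fgf14 farthest apart (3.65). In both Scn3b and Fgf13, Sst replicate 4 and Trpv1 replicate 3 were the highest libraries of their groups. The same libraries had the highest share of counts on genes of the mitochondrial genome, at 33.0% in Sst replicate 4 (21.7% to 31.6% in Sst replicates 1 to 3) and 40.25% in Trpv1 replicate 3 (25.4% to 28.1% in the other Trpv1 libraries). They also had the lowest TMM scaling factors of their groups (0.911 and 0.827), and the part of either in these levels was not tested.

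Other genes of the sodium channel complex also differed between the groups. Of 32 tested genes of the complex outside the 6, 5 were higher and 2 lower in Sst pools, 21.9% beside the background of 4.17%, and 25 did not pass. The median log2 fold change was 0.05. This is a count and no test of the list was made. The list was chosen with earlier results of these data known, so its share above the background is no separate evidence.

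Among 8 alpha subunit genes, 2 were higher and 1 lower. Scn8a, which encodes the main alpha subunit of nodes of Ranvier, stood at 350 ± 93.2 CPM in Sst pools and 85.6 ± 15.0 CPM in Trpv1 pools (SD, n = 4 each; log2 fold change 2.03, SE 0.23, edgeR adjusted p = 5.93e-05). Scn1a, known from fast-spiking neurons, stood at 219, 265, 214 and 112 CPM in Sst replicates 1 to 4, against 4.04, 1.15, 29.1 and 10.2 CPM in Trpv1 replicates 1 to 4 (log2 fold change 4.19, adjusted p = 0.0112 in edgeR, and 5.29 without Trpv1 replicate 3). Its call was lost when no filter was used, at nearly the same log2 fold change (4.23, adjusted p = 0.104). The call of Scn8a was lost in the 4 libraries almost free of Gh and Prl, with 1 Trpv1 library left, at nearly the same log2 fold change (2.01, adjusted p = 0.0841). Sst replicate 4 was the lowest Sst library for Scn1a, as it was for Scn4b.

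Scn9a, the alpha subunit gene of the nociceptor threshold current, was lower, at 663 ± 68.8 CPM in Sst pools and 1044 ± 213 CPM in Trpv1 pools (log2 fold change −0.65, edgeR adjusted p = 0.0471). That call lay at the threshold and was lost in 12 of 19 alternatives, including each fit that left out a library other than Trpv1 replicate 4. The nociceptor genes Scn10a and Scn11a had log2 fold changes of −0.21 and −0.32 (adjusted p = 0.642 and 0.517), and Scn2a1, Scn3a and Scn7a also did not pass.

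Fgf11, another gene of the FGF homologous factor family, had a positive fold change that did not pass. It was low and uneven, at 8.07, 0.981, 7.60 and 40.7 CPM in Sst replicates 1 to 4, against 0.424 to 1.65 CPM in Trpv1 pools (log2 fold change 3.69, adjusted p = 0.058 in edgeR). It passed in 4 of 18 alternatives, among them DESeq2 (adjusted p = 0.00245) and the fit without Sst replicate 2 (4.09, adjusted p = 0.0211). Without Sst replicate 4 the log2 fold change was 2.32 (adjusted p = 0.374). The highest Fgf11 value was thus in Sst replicate 4, the library with the lowest Scn4b value of its group.

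Of 9 anchoring and adhesion partners 2 were higher, 0 lower and 7 did not pass. Nfasc, which encodes the cell adhesion protein neurofascin of nodes and axon initial segments, stood at 360 ± 105 CPM in Sst pools and 82.0 ± 28.4 CPM in Trpv1 pools (log2 fold change 2.14, edgeR adjusted p = 0.00018). In the 4 libraries almost free of Gh and Prl its call was lost (2.41, adjusted p = 0.0623). Cntn1, whose product contactin binds beta subunits, stood at 356 ± 95.4 and 57.0 ± 20.4 CPM (Sst and Trpv1 pools, log2 fold change 2.64, edgeR adjusted p = 4.68e-05). Ank3, the ankyrin that holds sodium channels at the axon initial segment, gave 0.15 (adjusted p = 0.719 in edgeR).

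Of 6 enzymes that cleave beta subunits 1 was lower, Adam10, a membrane metalloprotease, at 27.9 ± 10.1 CPM in Sst pools and 69.3 ± 8.40 CPM in Trpv1 pools (log2 fold change −1.31, edgeR adjusted p = 0.0367). That call was lost on leaving out any library other than Sst replicate 4 (adjusted p from 0.0581 to 0.122) and in 11 of 19 alternatives in all. Bace1, the beta-secretase gene, did not pass (0.090, adjusted p = 0.93 in edgeR). Of 8 other regulators tested, 1 was higher: Mapk8ip2, a scaffold protein that binds FGF homologous factors, at 322 ± 47.5 and 174 ± 22.5 CPM (Sst and Trpv1, log2 fold change 0.89, edgeR adjusted p = 0.0144), a call lost without Trpv1 replicate 1 (adjusted p = 0.0523) and in 4 of 19 alternatives in all.

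**Figure D3:**
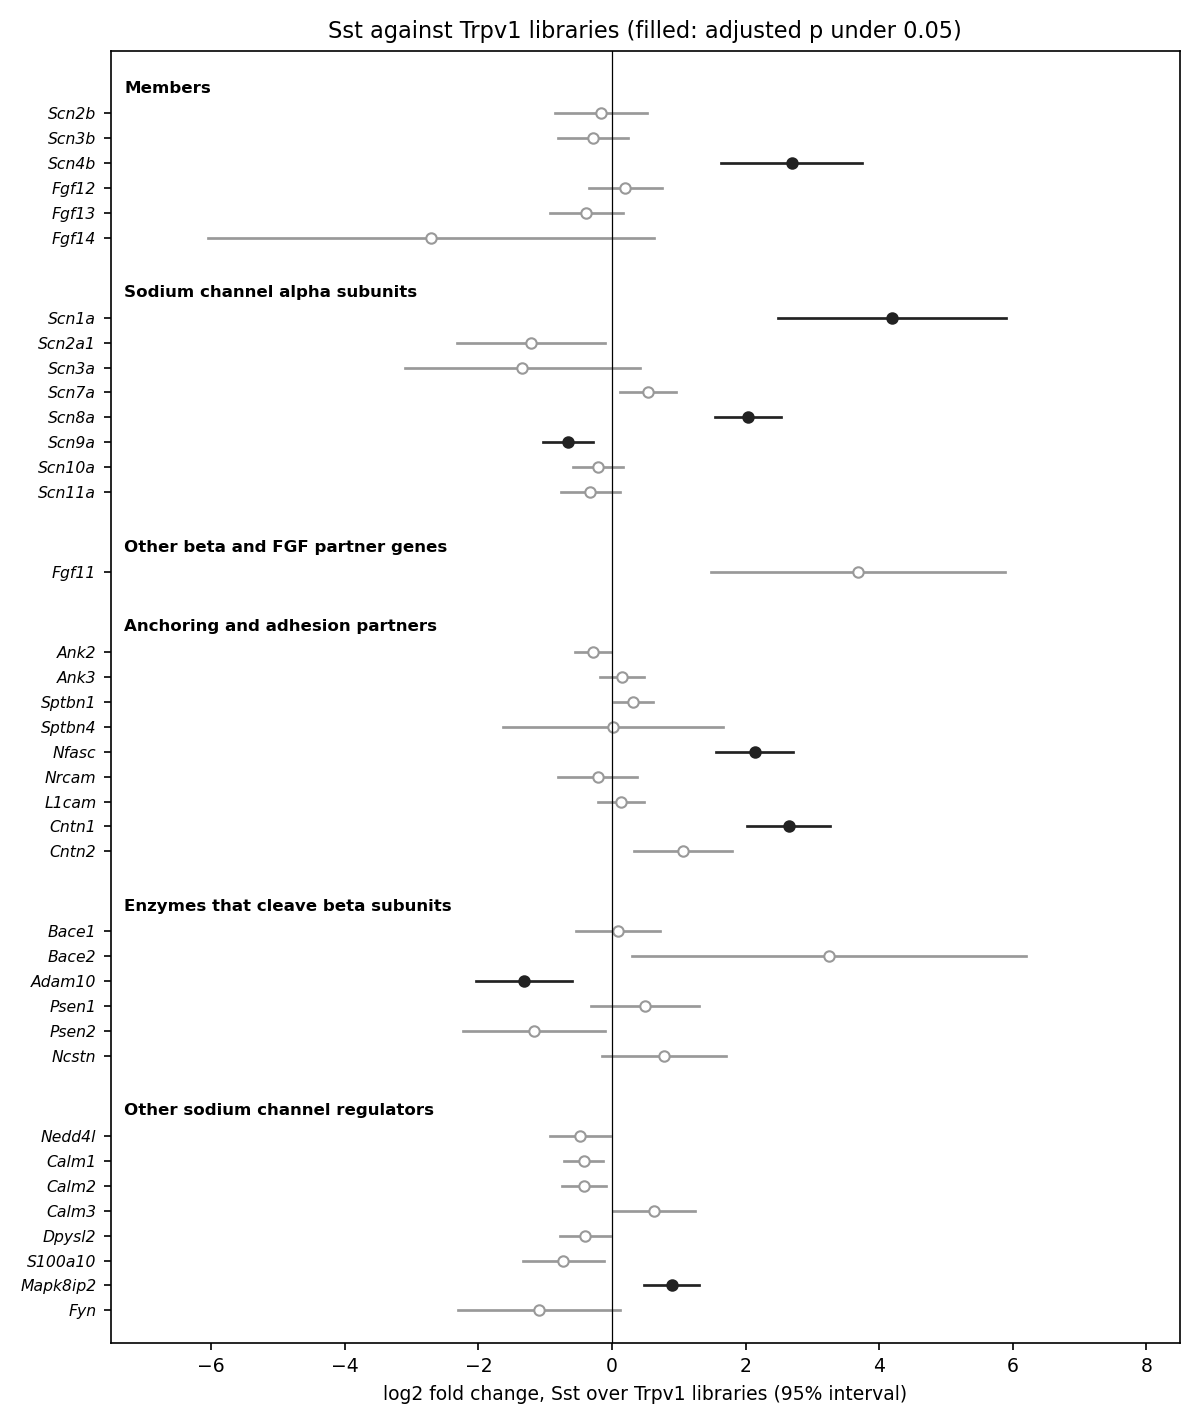
Log2 fold changes, Sst over Trpv1 libraries, with 95% intervals for the 6 genes and 32 other genes of the sodium channel complex, from 4 libraries per group. Filled points passed at an adjusted p under 0.05. Scn4b (2.69) lies between Cntn1 (2.64) and Scn1a (4.19) among the filled points, and Fgf14 has the widest interval.

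Neuron markers were present in all libraries, whatever the genotype. Pan-sensory markers were not level between the groups by their sum, at 5035 to 5949 CPM in Sst and 2825 to 3406 CPM in Trpv1 pools. Of these 7 genes 1 was higher in Sst pools (Snap25, log2 fold change 1.02) and 0 were lower. Snap25 was the largest part of the sum (means of 4052 CPM in Sst and 2000 CPM in Trpv1 pools). Tubb3 stood at 274 ± 90.5 CPM in Sst and 256 ± 76.0 CPM in Trpv1 pools (SD, n = 4 each). Most markers of myelinated mechanoreceptors and proprioceptors were higher in Sst pools, as Scn4b was. Of 12 such genes 9 were higher, 0 lower and 3 did not pass, with sums of 9117 to 14560 CPM in Sst pools and 5990 to 6914 CPM in Trpv1 pools. Among them the heavy neurofilament gene Nefh stood at 854, 1007, 1258 and 655 CPM in Sst replicates 1 to 4, against 329, 167, 315 and 175 CPM in Trpv1 replicates 1 to 4. The neurotrophin receptor gene Ntrk3 stood at 39.3 to 82.0 CPM in Sst and 0.103 to 8.91 CPM in Trpv1 pools. The transcription factor gene Runx3 was low in Sst pools (5.08 to 9.08 CPM) and had 0 counts in all 4 Trpv1 libraries. Runx3, Slc17a7 (at most 0.127 CPM in Trpv1 pools) and Necab2 (at most 0.414 CPM) passed the low-count filter through Sst pools alone. The direction of their calls was thus set by that filter. Within the Sst group, replicate 4 was lowest both in Scn4b and in the marker sum. Nefl and Nefm made up most of that sum (means of 5077 and 4188 CPM in Sst pools). Not every marker ranked so: Etv1 was highest in Sst replicate 4 (884 CPM) and Spp1 was lowest in Sst replicate 2 (18.5 CPM). The rest were lowest in Sst replicate 4, with Runx3 nearly level in Sst replicates 1, 2 and 4. Trpv1 libraries did not rank alike: replicate 2, highest of them in Scn4b (48.0 CPM), had the lowest marker sum (5990 CPM) and Nefh value. Ntrk3 was highest in Trpv1 replicate 4, where Scn4b was lowest.

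Markers of unmyelinated classes went in different directions beside Scn4b. Peptidergic nociceptor markers summed to 43.0 to 122 CPM in Sst and 1901 to 2604 CPM in Trpv1 pools, with 5 of 6 lower and 0 higher. NP3 markers summed to 4493 to 7431 CPM in Sst and 2472 to 2685 CPM in Trpv1 pools, with 3 of 8 higher and 0 lower. Those higher were Il31ra, Npy2r and the kinase gene Jak1, the largest part of the sum (means of 2933 CPM in Sst and 1309 CPM in Trpv1 pools). The peptide genes Nppb, Sst and Nts did not pass, nor did Osmr and Cysltr2 (edgeR adjusted p from 0.123 to 0.914). NP1 and NP2 markers, of other nonpeptidergic neurons, summed to 35.3 to 43.4 CPM in Sst and 193 to 471 CPM in Trpv1 pools, with 2 of 5 lower and 0 higher. The gap in that sum lay in Mrgpra3 (7.88 ± 5.55 CPM in Sst and 208 ± 98.2 CPM in Trpv1 pools) and Mrgprx1 (6.65 ± 1.67 CPM in Sst and 79.7 ± 33.0 CPM in Trpv1 pools, SD, n = 4 each), receptor genes of the NP2 class. Mrgprd, the defining marker of NP1, averaged 14.7 CPM in Sst and 15.0 CPM in Trpv1 pools and did not pass, nor did Lpar3 and Agtr1a. The part that these cell classes take in the Scn4b difference was not tested.

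Markers of cells other than sensory neurons gave no calls. Schwann and satellite glia markers summed to 549 to 887 CPM in Sst and 701 to 1014 CPM in Trpv1 pools, with 0 of 8 called. Endothelial markers summed to 7.79 to 70.3 CPM in Sst and 4.78 to 37.7 CPM in Trpv1 pools, fibroblast markers to 46.6 to 433 CPM in Sst and 75.9 to 317.5 CPM in Trpv1 pools, and red blood cell markers to 8.39 to 26.75 CPM in Sst and 4.70 to 17.4 CPM in Trpv1 pools, with 0 calls in each list. Immune markers reached at most 3.89 CPM in Sst and 24.9 CPM in Trpv1 pools, and none was tested. Markers of C low-threshold mechanoreceptors summed to at most 11.7 CPM in Sst and 9.93 CPM in Trpv1 pools. Pituitary transcripts stood in 1 Sst and 3 Trpv1 libraries, and their part in the Scn4b difference was not tested.

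**Figure D4:**
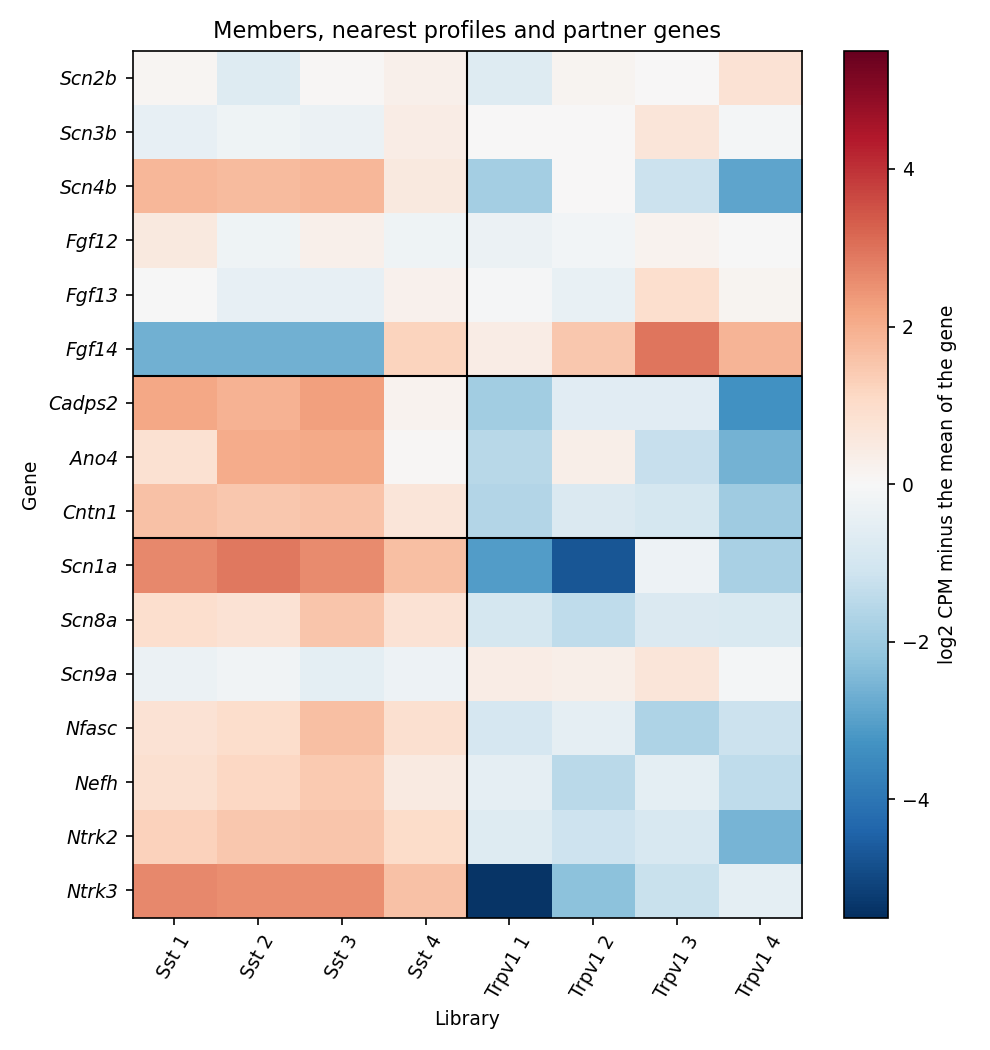
Log2 CPM minus the mean of each gene (colour) in the 8 libraries. Rows are the 6 genes, the 3 genes nearest to Scn4b in profile, Scn1a, Scn8a, Scn9a, Nfasc and 3 of the 12 myelinated neuron markers. Among the markers not shown, Etv1 is highest of the Sst group in replicate 4. The called partner genes Adam10 and Mapk8ip2 are not shown. Scn4b, Cadps2, Cntn1, Scn1a, Nefh, Ntrk2 and Ntrk3 are high in Sst replicates 1 to 3, lower in Sst replicate 4 and lower still in Trpv1 pools. Ano4 is higher in Trpv1 replicate 2 (0.31) than in Sst replicate 4 (0.064). Nfasc and Scn8a are not lowest of the Sst group in replicate 4. Scn2b, Scn3b, Fgf12 and Fgf13 stay near 0.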

How the data were processed

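The measurement file is a gene-by-library table that the authors deposited as unnormalized read counts for 8 libraries. Per the labels' protocols, PicoPure extraction was followed by Ovation cDNA amplification and Nextera XT library construction. Amplifying RNA of few cells adds spread to low genes. Per the submitters' processing notes, bcl2fastq 2.17, Trimmomatic 0.33, featureCounts and build GRCm38 were used, while aligner, annotation and strand setting were not given in the sources used here. Each column name gives the group and replicate number of 1 sample title, and 0 columns were unused. The labels call the samples independent and say that every picking session covered both genotypes, without saying which samples shared a session, so p-values measure the spread between these samples.

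Counts were filtered with filterByExpr (minimum count 10), scaled by TMM and tested with edgeR 4.0.16 (R 4.3.3), by the robust quasi-likelihood F test in its default (legacy) form, two-sided, with group as the sole term and Benjamini-Hochberg adjustment over all 11828 genes. Fold changes are Sst over Trpv1, standard errors come from the F statistic, and the prior count of log2 CPM was 2. CPM are TMM-normalized, and lengths are the union of GENCODE M21 exons (11239 tested symbols found). The same fit was tested on simulated counts. The biological coefficient of variation was 69.1%, and within groups the chi-square per degree of freedom between libraries ran from 40 to 100, so no library repeats another.

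The 6 genes and all lists were chosen with earlier results of these data known. Genes named beyond them by rule were called genes of the complex, the most abundant gene of a list without calls, called markers and the 3 nearest profiles of each gene. Uncalled genes of the complex outside that rule (such as Scn10a, Scn11a, Ank3 and Bace1) and Tubb3 were named after their values were seen. Of the listed symbols Scn2a stood in the table as Scn2a1 and Tafa4 matched no symbol. Some genes of the complex are not reported here, and the counts of its lists leave them out. Alternatives were RLE factors, no filter, a filter of CPM 5 in 4 libraries, DESeq2 1.42.0, limma 3.58.1 voom with sample weights, fits without robustness, with a replicate block or a term for Xist, subsets of libraries, and, chosen after seeing the data, the newer quasi-likelihood form and shares by longest transcript.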

Additional observations from a re-analysis of the deposited data

Results flagged for a closer look

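In 3 of the 12 sets of 4 values formed by 6 genes and 2 groups, 1 library stood apart by Dixon's criterion. Chance flags about 5% of sets when values are untied and sets are independent. Here Scn4b and Fgf14 were flagged in the same library and the Fgf14 set holds ties, so the count cannot be set against that rate. Scn4b in Sst replicate 4 (68.9 CPM) lay far below the other Sst libraries, at 157 to 171 CPM. Fgf14 in Sst replicate 4 (2.90 CPM) was the sole nonzero value of that group. With 0 counts in Sst replicates 1 to 3, any other value would have been flagged. Scn3b in Trpv1 replicate 3 (279 CPM) lay far above the other Trpv1 libraries, at 162 to 177 CPM.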

How the results depend on the processing

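Scn4b was called higher in all 19 alternatives, with log2 fold changes from 2.39 to 4.51, and Fgf12 and Fgf13 kept their sign and stayed uncalled throughout. The count of called genes was 493, and became 902 with DESeq2, 268 with a term for Xist, 230 in the 6 libraries with Xist, 55 in the 4 libraries without Gh and Prl, 751 with the newer quasi-likelihood form, and 306 to 503 on leaving out single libraries. The number of the 6 genes called was 2 (1 lower) with limma voom, where 5.11% of all genes were called, and ran from 1 to 2 on leaving out single libraries (0 to 1 lower, with 4.05% of all genes called without Sst replicate 4), the second being Fgf14, at −5.55 with voom and from −8.49 to −2.11 on leaving out single libraries. Fgf14 could not be fitted under the stricter filter, which removed it. Scn2b turned to 0.018 with voom and ran from −0.34 to 0.14 on leaving out single libraries, and Scn3b turned to 0.098 in the 4 libraries without Gh and Prl, where the median over all genes also shifted by 0.12. The newer form was added after seeing the data. The cause of these changes was not tested. With 4 libraries per group, differences the size of those of Scn2b, Scn3b, Fgf12 and Fgf13 lay within the spread between libraries, and low counts limit Fgf14.

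Same-numbered libraries did not deviate together (r from −0.0296 to 0.0316 across genes), and although each session took in both genotypes, the labels do not tie replicate numbers to sessions, so the numbers were not taken as pairs. With the replicate block 398 genes were called and Scn4b gave 2.99, and no call among the 6 genes changed.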
